A study of Mus musculus with 8 samples.

Results

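The 10 genes described here encode the contractile machinery of smooth muscle, together with the cardiac isoform of actin: Acta2, Actc1, Actg2, Tpm2, Tagln, Cnn1, Lmod1, Myh11, Mylk and Des. They were found in a deposited table of 43432 mouse Ensembl genes by matching identifiers to symbols, and all 10 were matched and all 10 passed the filter on low counts that left 15422 genes for testing. The table holds read counts for 8 RNA libraries of lung myofibroblasts, taken on postnatal day 7 from C57BL/6 mice. Labels give 4 of them as transgenic for constitutive Fra-2 (named Fra-2 1, 2, 3 and 4) and 4 as wild type (control 1 to control 4). Fosl2 encodes Fra-2, a subunit of the transcription factor AP-1. The promoter that drives the transgene, the founder lines and the way the cells were isolated are not stated in the labels, nor whether each library came from its own animal. All p-values therefore measure the spread between these libraries, which may be technical.

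Smooth muscle contracts when myosin, switched on by phosphorylation of its light chain, pulls on actin filaments that are anchored in dense bodies linked by desmin. The genes of this machinery are classical targets of serum response factor (SRF), which binds CArG boxes with the cofactor myocardin or its relatives. In the developing lung the same genes are expressed by airway and vascular smooth muscle, by pericytes in part and by the alveolar myofibroblasts that lie at the tips of growing septa. In bulk samples like these, fewer cells of a type and less RNA per cell cannot be told apart.

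Fosl2 was not called between the groups, so the label of the transgenic libraries is used as a label throughout. It measured 166, 134, 126 and 104 CPM (reads of the gene relative to the scaled library size) in Fra-2 1 to Fra-2 4, against 105, 117, 141 and 119 CPM in control 1 to control 4. On the log2 scale the difference was 0.14 with an SE of 0.136 (edgeR adjusted p = 0.888), and the 95% interval of the fold ran from 0.898 to 1.34. A two-sided exact permutation test returned p = 0.457 (0.0286 is the least it can give with n = 4 each). Total counts ran from 29926239 to 41335957 per library. The alveolar myofibroblast markers were abundant in every library, with a sum over 10 genes of 11364 to 11768 CPM in the libraries labelled transgenic and 10956 to 12777 CPM in the controls. Pericyte and vascular smooth muscle markers were present too, at 2244 to 2568 CPM over 11 genes in the libraries labelled transgenic and 2420 to 2872 CPM in the controls.

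Among the 10 contractile genes, Actc1 alone was called, with more RNA in the libraries labelled transgenic. That is 1 of 10 genes called higher and 0 of 10 called lower (edgeR's quasi-likelihood test, adjusted over all genes tested). Over all 15422 genes, 0.72% were called higher and 0.298% lower, or 1.02% in either direction. DESeq2 called the same 1 of 10 higher and 0 lower, against 1.76% and 0.629% of all genes. The log2 fold changes of the 10 genes ran from 0.05 for Acta2 to 0.83 for Actc1 and all 10 were above 0, with a median of 0.16, while 47.8% of all tested genes were above 0 and their median was -0.01. The 10 genes were measured in the same libraries, so their signs are not 10 separate observations. At an unadjusted p under 0.05, 2 of 10 were higher (Actc1 and Lmod1) and 0 lower, against a total of 8.71% of all tested genes. These were also the 2 genes whose groups did not overlap, with all 4 libraries labelled transgenic above all 4 controls. Such a separation upwards was seen in 3.35% of tested genes, and one in either direction in 5.76%.

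**Figure D1:**
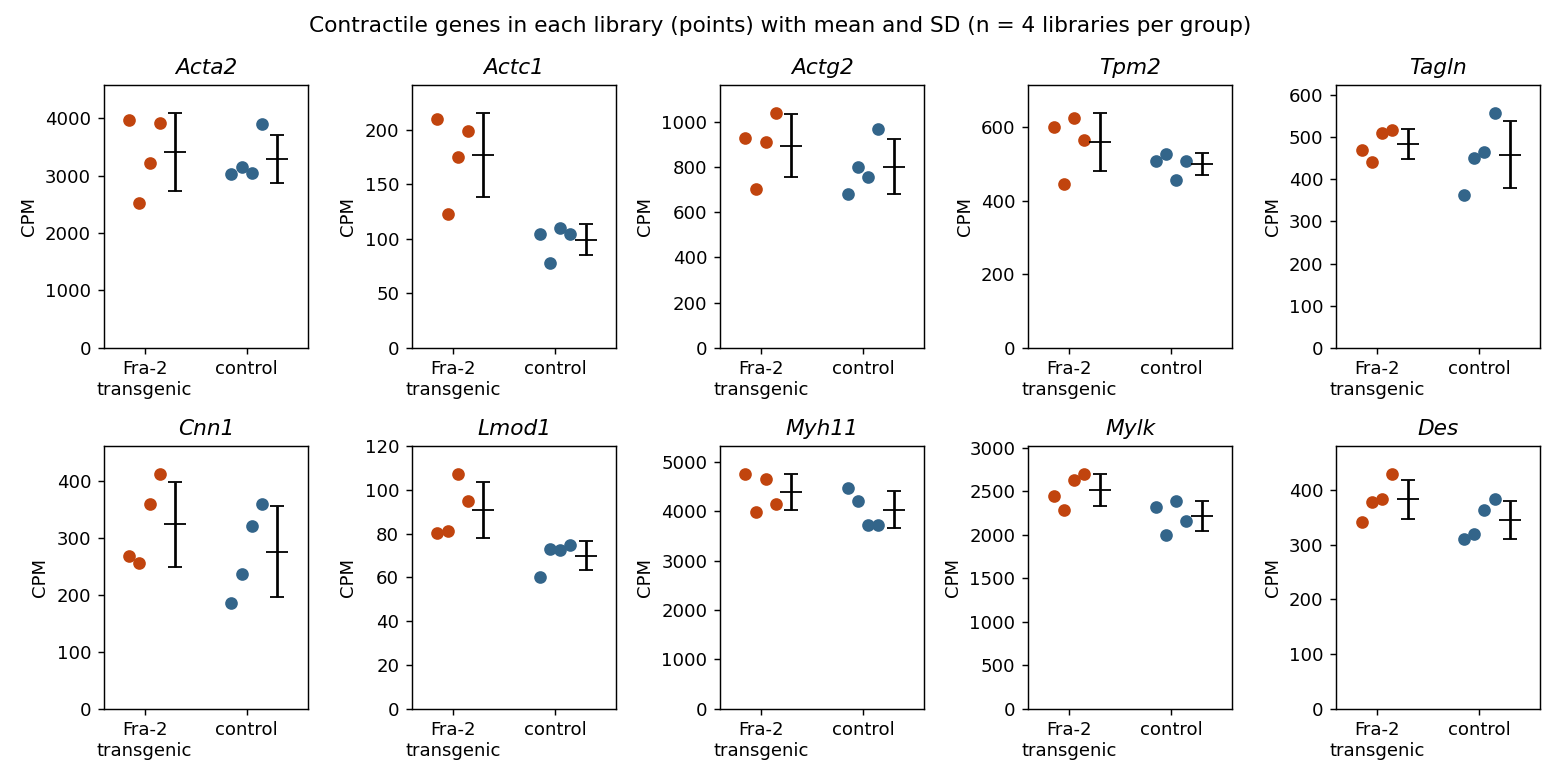
CPM of each of the 10 contractile genes (y axes, each from 0) in the 4 libraries labelled Fra-2 transgenic (left) and in the 4 controls (right), with the mean and SD of each group beside the points. Only the panels of Actc1 and Lmod1 show groups that do not overlap.

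Actins form the thin filament on which myosin pulls. Acta2 encodes the alpha actin of vascular smooth muscle and of myofibroblasts, Actg2 the gamma actin of visceral smooth muscle, and Actc1 the alpha actin of heart muscle, which is also made by other developing muscle. Their proteins are nearly identical, while their genes lie on different chromosomes and their coding sequences differ at scattered bases. The same stretch of 60 coding bases from the 3 genes is shown for this reason, since it decides whether a read can be assigned to 1 actin. Capitals mark the 14 positions at which the 3 sequences are not all the same (GENCODE M21, build GRCm38, all on the minus strand).
Acta2, chr19:34252464-34252523, coding bases 31 to 90: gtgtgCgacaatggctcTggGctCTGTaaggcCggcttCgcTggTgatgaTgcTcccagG
Actc1, chr2:114051942-114052001, coding bases 31 to 90: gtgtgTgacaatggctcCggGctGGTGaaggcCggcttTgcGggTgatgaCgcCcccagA
Actg2, chr6:83527355-83527414, coding bases 28 to 87: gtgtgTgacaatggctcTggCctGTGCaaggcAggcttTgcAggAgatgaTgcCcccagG
Aligned without gaps from the last codon over 1101 coding bases, Actc1 was identical to Acta2 at 82.8% of bases and to Actg2 at 84.8%. The longest identical run between the Actc1 and Acta2 transcripts was 23 bases, and that between Actc1 and Actg2 was 38 bases. Of the 1424 windows of 50 bases in the Actc1 transcript, 0 occurred in an annotated transcript of any other gene, and the same held for the 1284 windows of Actg2. In Acta2, 7 of 1986 windows (0.352%) did, shared with 6 genes that include the cytoplasmic actin gene Actg1 and the pseudogene Actg-ps1. The labels do not state the read length or how reads with several matches were counted.

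Acta2 (ENSMUSG00000035783, chromosome 19, 34241090 to 34255590) was the contractile gene that differed least between the groups. It measured 3969.9, 2526, 3229.6 and 3918 CPM in Fra-2 1 to Fra-2 4, against 3038, 3157, 3043 and 3904 CPM in control 1 to control 4. The lowest value, in Fra-2 2, and the highest, in Fra-2 1, both belonged to the group labelled transgenic, so the groups overlapped fully. Its log2 fold change of 0.05 (SE 0.140) did not pass (edgeR adjusted p = 0.964), and the 95% interval of the fold ran from 0.843 to 1.28. Its sign turned, to -0.02, without Fra-2 1 or without Fra-2 4.

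Actc1 (ENSMUSG00000068614, chromosome 2, 114047282 to 114053548) measured 209.8, 123, 175 and 198 CPM in Fra-2 1 to Fra-2 4, against 104, 78.1, 109.96 and 105 CPM in control 1 to control 4. The lowest library labelled transgenic, Fra-2 2, lay just above the highest control, control 3, and the other 3 lay well above it. The group means were 176 ± 38.6 CPM and 99.2 ± 14.3 CPM (SD, n = 4 each). This corresponds to a 1.78-fold higher level, with a 95% interval from 1.41 to 2.25 (log2 fold change 0.83, SE 0.157, edgeR adjusted p = 0.0215). Each library held 2740 to 7486 Actc1 reads, so counting error was small beside the spread between libraries. The call rested on few libraries: it was lost without Fra-2 1 (edgeR adjusted p = 0.0934), Fra-2 3 (0.0585), Fra-2 4 (0.0624) or control 2 (0.0766), although the log2 fold change stayed between 0.74 and 0.97 without any 1 library.

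By their Xist and Y-linked counts, 2 libraries of each group were read as female and 2 as male, so Actc1 was also compared within each sex. A library was read as male where its summed Y-linked level exceeded Xist and as female otherwise, so a pool of both sexes would not show. The log2 fold change of Actc1 was 1.04 in the female libraries (edgeR adjusted p = 0.0107) and 0.62 in the males (edgeR adjusted p = 0.9998), with 2 libraries a group. The test of the difference between the sexes gave -0.41 for males minus females (edgeR, unadjusted p = 0.237), and 0 genes passed that test after adjustment. With sex as a covariate the Actc1 call held, at an adjusted p of 0.0412.

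Set against Acta2 within the same library, Actc1 left a wider gap between the nearest libraries of the 2 groups than its CPM did. There were 52.8, 48.6, 54.2 and 50.6 Actc1 counts per 1000 Acta2 counts in Fra-2 1 to Fra-2 4, against 34.3, 24.8, 36.1 and 26.8 in control 1 to control 4. Every library labelled transgenic had a higher ratio than every control, Fra-2 2 included. Of all counts on the muscle actin genes Acta2, Actg2, Actc1 and Acta1, Actc1 held 3.66 to 4.11% in the libraries labelled transgenic and 1.94 to 2.81% in the controls. The Acta2 share was 74.8 to 77.7%, against 77.8 to 79.4% in the controls. No test was made of these ratios, which combine genes of the list.

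Actg2 (ENSMUSG00000059430, chromosome 6, 83512905 to 83536265) followed Acta2 more than Actc1. It measured 928, 702, 911 and 1039 CPM in Fra-2 1 to Fra-2 4, against 682, 801, 755 and 969 CPM in control 1 to control 4. The groups overlapped, and the log2 fold change of 0.16 (SE 0.133) did not pass (edgeR adjusted p = 0.851). Its counts per 1000 Acta2 counts ran from 234 to 282 in the libraries labelled transgenic and from 225 to 254 in the controls. The skeletal muscle actin gene Acta1, which is no member of the list, held 18 to 35 reads per library labelled transgenic, against 29 to 44 in the controls.

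Actc1 is a defining gene of heart muscle, so the other heart and skeletal muscle genes are given beside it. Of 27 such sarcomere genes, 22 could be tested, and edgeR called 0 higher and 0 lower, while 1 (Ryr2, the calcium release channel gene) was higher in DESeq2 and at an unadjusted p. Over all tested genes DESeq2 called 1.76% higher, and 8.71% had an unadjusted p under 0.05 in either direction. Of the 22 sarcomere genes, only 5 had a positive log2 fold change, and the median was -0.37. The summed level of these 22 genes ran from 48.2 to 134 CPM in the libraries labelled transgenic and from 50.1 to 140 CPM in the controls. The atrial and adult heart myosin gene Myh6 measured 6.08, 11.1, 34.2 and 8.37 CPM in Fra-2 1 to Fra-2 4, against 7.44, 17.2, 23.1 and 37.7 CPM in control 1 to control 4. The cardiac troponin gene Tnnt2 measured 7.70, 10.7, 22.8 and 5.88 CPM in Fra-2 1 to Fra-2 4, against 10.2, 14.4, 32.0 and 34.7 CPM in control 1 to control 4. Among the libraries labelled transgenic, both genes were lowest in Fra-2 1 and Fra-2 4, those with the highest Actc1. The controls ran the other way: both genes were highest in control 3 and control 4, those with the highest Actc1 (109.96 and 104.8 CPM). Control 1 was close to control 4 in Actc1, at 104.1 CPM, and had the lowest Myh6 and Tnnt2 of the controls. The part of heart muscle RNA in the Actc1 values was not tested. The atrial peptide gene Nppa had 0 reads in each library labelled transgenic and 0 to 3 in the controls. Ldb3, a Z-disc protein gene and the most abundant of the tested genes, averaged 23.2 CPM in the libraries labelled transgenic and 14.1 CPM in the controls (edgeR adjusted p = 0.678).

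**Figure D2:**
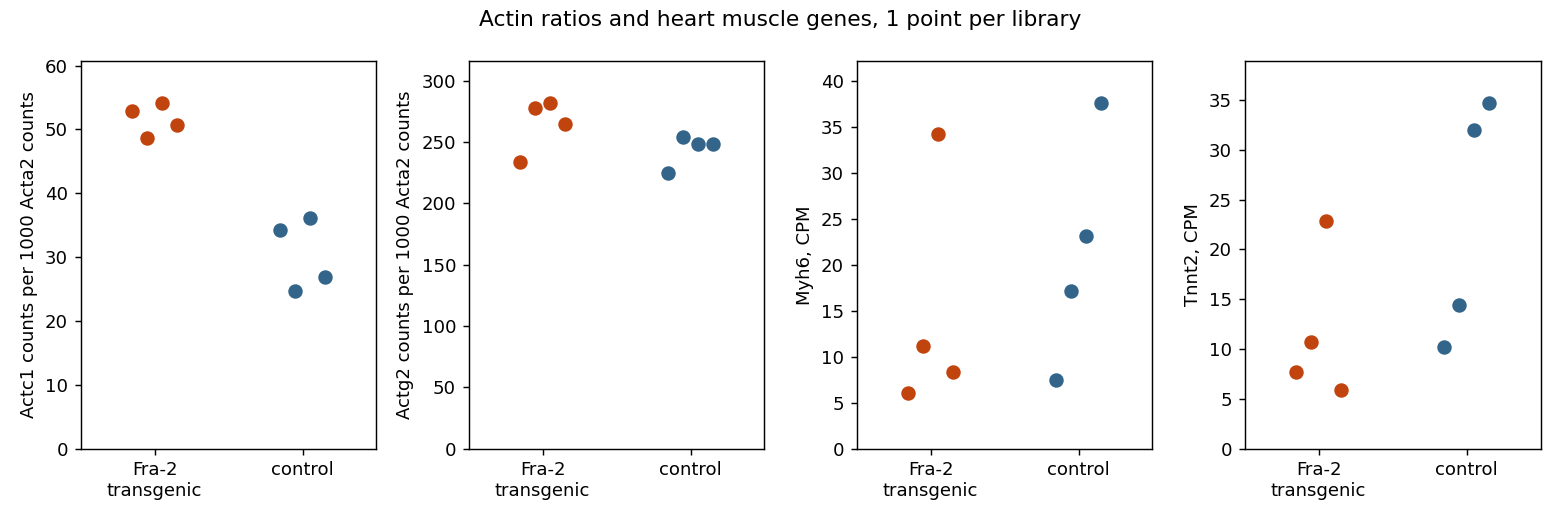
Counts of Actc1 and of Actg2 per 1000 Acta2 counts, and CPM of the heart muscle genes Myh6 and Tnnt2, in 4 libraries labelled Fra-2 transgenic (left) and 4 controls (right; y axes from 0, 1 point per library). The Actc1 ratios of 48.6 to 54.2 and of 24.8 to 36.1 do not overlap, while the other 3 panels do.

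The promoters of Actc1 and Acta2 are shown because both carry sequences of the kind that SRF binds, although only Actc1 was called. The 250 bases before the RefSeq start sites are given in build GRCm38.p6, 5′ to 3′ on the minus strand. Capitals mark the CArG box, which is CC, then A or T throughout, then GG, and a CArG-like element common to both promoters, which departs from that pattern in its left part.
Actc1, chr2:114052876-114053125: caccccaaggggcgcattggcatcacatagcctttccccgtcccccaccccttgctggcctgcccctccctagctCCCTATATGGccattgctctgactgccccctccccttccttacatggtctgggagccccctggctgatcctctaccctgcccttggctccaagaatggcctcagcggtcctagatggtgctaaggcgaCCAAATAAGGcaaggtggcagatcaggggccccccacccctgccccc
Acta2, chr19:34255374-34255623: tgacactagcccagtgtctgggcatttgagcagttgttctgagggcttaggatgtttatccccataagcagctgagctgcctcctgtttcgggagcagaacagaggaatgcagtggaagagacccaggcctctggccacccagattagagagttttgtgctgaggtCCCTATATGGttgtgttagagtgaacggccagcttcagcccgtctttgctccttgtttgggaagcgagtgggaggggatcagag
The strict CArG box of Actc1, CCAAATAAGG, began 47 bases before the start site, and its CArG-like element began 175 bases before it. In Acta2 that element began 84 bases before the start site and no strict CArG box was matched. Other near matches to the CArG pattern were neither searched for nor marked in either promoter.

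RefSeq promoter windows of 300 bases (250 before the start site and 50 from it) were found for 7 of the 10 genes: Acta2, Actc1, Cnn1, Des, Lmod1, Mylk and Tpm2. Both strands were searched. The strict CArG box occurred in 1 of the 7 (Actc1), against 1.63% of 32851 mouse windows. The CArG-like element, searched as 1 exact sequence, was chosen after the promoters were seen, as one common to Acta2 and Actc1. Its presence in these 2 of the 7 was therefore fixed by the choice. It occurred in 0.0274% of all windows, and no enrichment can be read from that comparison. The AP-1 sequence TGANTCA, with any base at N, occurred in 1 of the 7, as TGAGTCA in Mylk 64 bases before the start site, against 7.81% of all windows. Actc1 and Acta2 had 0 matches to it. The TEAD sequence CATTCC occurred in 3 of the 7 (Acta2, Lmod1 and Mylk), against 14.7%. A match describes these letters only, and the lack of one says nothing of a factor's binding elsewhere.

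Tropomyosin, transgelin, calponin and leiomodin bind the actin filament and set its stability and its access to myosin. Lmod1, which encodes the smooth muscle leiomodin that nucleates actin filaments, was the only gene besides Actc1 whose groups did not overlap. It measured 80.2, 81.1, 107 and 94.7 CPM in Fra-2 1 to Fra-2 4, against 59.9, 72.7, 72.4 and 74.6 CPM in control 1 to control 4. The gap between the groups was narrow, from 80.2 CPM in Fra-2 1 to 74.6 CPM in control 4. Its log2 fold change was 0.38 (SE 0.118), and it did not pass over all genes (edgeR adjusted p = 0.226, DESeq2 adjusted p = 0.106). The 95% interval of the fold, 1.09 to 1.55, lay above 1 before adjustment.

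Cnn1, the basic calponin gene of differentiated smooth muscle, had the widest spread of the list within the groups. It measured 267, 255, 359 and 412 CPM in Fra-2 1 to Fra-2 4, against 185, 237, 321 and 359.9 CPM in control 1 to control 4. The coefficient of variation was 23.2% in the libraries labelled transgenic and 28.8% in the controls, and the log2 fold change of 0.23 (SE 0.211) did not pass (edgeR adjusted p = 0.876). The 95% interval of the fold ran from 0.852 to 1.62, and so took in the 1.30-fold estimate for Lmod1 as well as lower values.

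Tpm2, the beta tropomyosin gene, measured 598, 445, 625 and 564 CPM in Fra-2 1 to Fra-2 4, against 506, 528, 455 and 507 CPM in control 1 to control 4. Fra-2 2 was below every control and the other 3 libraries of its group were above every control. Its log2 fold change of 0.16 (SE 0.112) did not pass (edgeR adjusted p = 0.796).

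Tagln, which encodes the actin-binding protein SM22-alpha and is an early marker of smooth muscle, measured 469, 441, 509 and 517 CPM in Fra-2 1 to Fra-2 4, against 362, 451, 464 and 557 CPM in control 1 to control 4. The controls spanned all 4 libraries labelled transgenic, and the log2 fold change of 0.08 (SE 0.122) did not pass (edgeR adjusted p = 0.940). Its sign turned, to -0.02, without control 1. In the annotation, 62.4% of the exon bases of Tagln are overlapped on the other strand by the antisense gene Gm48529 and 5.43% by Pcsk7. With no strand-marking step in the protocols, reads from these genes and from Tagln cannot be told apart where their exons overlap.

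Myosin and its kinase supply the force. Myh11, the heavy chain of smooth muscle myosin (ENSMUSG00000018830, chromosome 16, 14194535 to 14291372), ranked 16th of all 15422 tested genes by mean CPM. It measured 4748, 3989, 4651 and 4153 CPM in Fra-2 1 to Fra-2 4, against 4469, 4211, 3724 and 3711 CPM in control 1 to control 4. The groups overlapped, and the log2 fold change of 0.12 (SE 0.101) did not pass (edgeR adjusted p = 0.849). Its order over the controls was unlike that of the actins: Myh11 was highest in control 1 and lowest in control 4, where Acta2, Actg2, Tagln, Cnn1 and Des were at their highest among the controls.

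Mylk, the gene of myosin light chain kinase and, from an internal promoter, of telokin, measured 2449, 2286, 2631 and 2692 CPM in Fra-2 1 to Fra-2 4, against 2313, 1996, 2386 and 2151 CPM in control 1 to control 4. The ranges overlapped only between 2286 and 2386 CPM. Its log2 fold change of 0.19 (SE 0.0969) did not pass (edgeR adjusted p = 0.666), and the 95% interval of the fold, 0.985 to 1.31, did not reach the 1.78-fold estimate for Actc1. The antisense genes E130310I04Rik and Gm21691 overlap 4.87% and 1.99% of its exon bases.

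Des encodes desmin, the intermediate filament protein that links dense bodies in muscle cells. It measured 341, 377, 383 and 429 CPM in Fra-2 1 to Fra-2 4, against 311, 320.1, 364 and 383 CPM in control 1 to control 4. The groups overlapped, and the log2 fold change of 0.15 (SE 0.105) did not pass (edgeR adjusted p = 0.796).

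**Figure D3:**
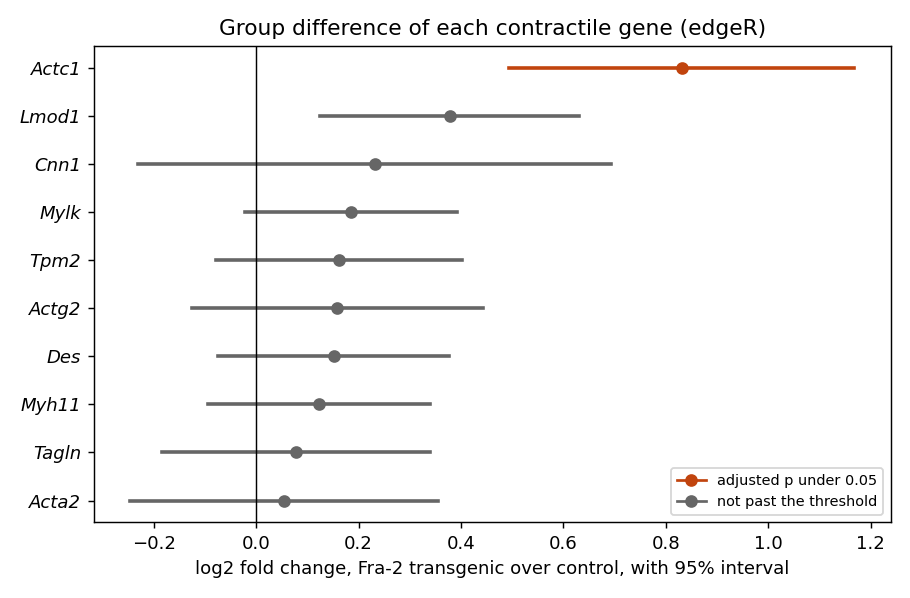
Log2 fold change (x axis) of the libraries labelled Fra-2 transgenic over the controls for each contractile gene, with its 95% interval from edgeR. Actc1, at 0.83, is the 1 gene past the adjusted threshold, and the interval of Lmod1 also lies above 0 before adjustment.

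The libraries differed within each group in a way that many of the 10 genes shared. In Fra-2 2, 0 of the 10 genes exceeded the mean of its group (log2 CPM), while 9 of 10 did in Fra-2 3, 9 of 10 in Fra-2 4 and 5 of 10 in Fra-2 1. Among the controls, 8 of 10 did in control 4, 6 in control 3, 4 in control 2 and 4 in control 1. The 10 genes together took 1.18% of all counts in Fra-2 2, against 1.32 to 1.40% in the other libraries labelled transgenic. In the controls they took 1.16 to 1.27%. Without Fra-2 2, the median log2 fold change of the 10 genes became 0.24, which is over 1.5 times the 0.16 with all libraries, and Actc1 alone was still called. Without control 4 the median was 0.20 and without Fra-2 4 it was 0.12.

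**Figure D4:**
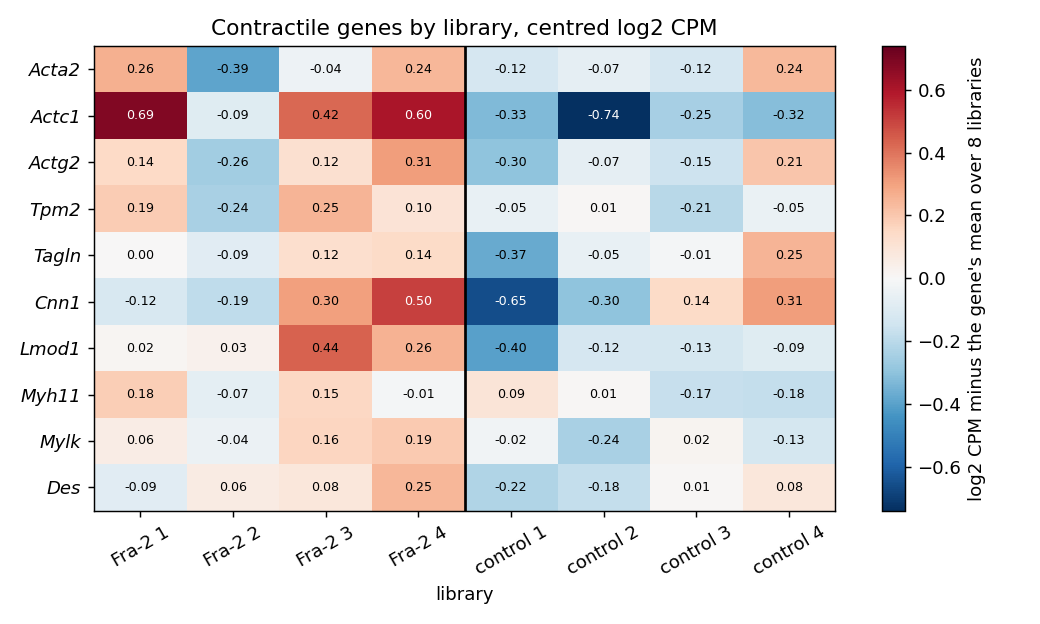
Log2 CPM of each contractile gene (rows) in each library (columns), as the difference from the gene's mean over the 8 libraries, with the libraries labelled Fra-2 transgenic left of the line. Actc1 is above its mean by 0.42 to 0.69 in 3 of the libraries labelled transgenic and at -0.09 in Fra-2 2, which is low across most of the list.

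Levels of different genes were compared per length, as CPM per kilobase (kb) of all annotated exon sequence, which understates genes with long exons that few transcripts use. The measure makes no correction for the 62.4% of Tagln exon bases that the antisense gene Gm48529 overlaps. Acta2 stood first in all 8 libraries, at 1150.4 to 1808 CPM per kb. Myh11, at 488 to 625, and Actg2, at 438 to 667, followed and could not be ordered, with Actg2 above Myh11 in 1 library labelled transgenic and in 1 control. Tagln (182 to 280.3 CPM per kb), Mylk (177 to 239) and Tpm2 (153 to 215) overlapped with one another, as did Cnn1 (67.5 to 151), Des (82.7 to 114) and Actc1 (48.3 to 129.7). Lmod1 was last in all 8 libraries, at 15.2 to 27.2 CPM per kb. The place of Actc1 differed by group: it exceeded Des in 3 of 4 libraries labelled transgenic and in 0 of 4 controls. Its mean was 109 ± 23.9 CPM per kb in the libraries labelled transgenic and 61.3 ± 8.84 CPM per kb in the controls (SD, n = 4 each).

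**Figure D5:**
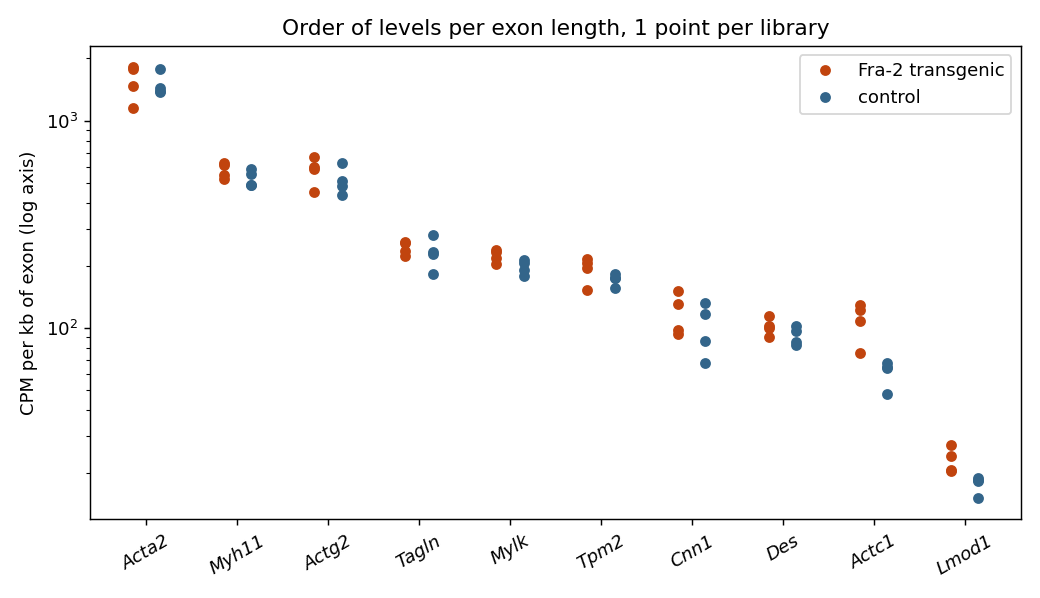
CPM per kb of exon (log axis) of the 10 contractile genes in order of their mean over the 8 libraries, with libraries labelled Fra-2 transgenic left of the controls. Acta2 is first and Lmod1 last in every library, and Actc1 is the gene whose 2 groups stand farthest apart.

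Most lists of other contractile pathway genes gave no call in either tool. Of 16 further thin filament and actin-binding genes, 0 were called higher and 0 lower in edgeR or in DESeq2, 6 had a positive log2 fold change, and the median was -0.03. At an unadjusted p under 0.05, 0 were higher and 1 lower, against 8.71% of all tested genes in either direction. The most abundant was Cald1, which encodes the actin-binding regulator caldesmon, at 4058 ± 404 CPM in the libraries labelled transgenic and 4228 ± 166 CPM in the controls (edgeR adjusted p = 0.942). Of 8 myosin chain genes 0 were called in either direction by edgeR or DESeq2 and 0 at an unadjusted p, 3 had a positive log2 fold change, and the median was -0.09. Myh10, a non-muscle myosin heavy chain gene, led them by CPM at 2263 CPM in the libraries labelled transgenic and 2252 CPM in the controls. Myl9, the regulatory light chain gene that works with Myh11, measured 434, 397, 497 and 547 CPM in Fra-2 1 to Fra-2 4, against 415, 449, 531 and 743 CPM in control 1 to control 4. Like Acta2 and Cnn1, it was lowest in Fra-2 2 among the libraries labelled transgenic and highest in control 4 among the controls.

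Genes that regulate light chain phosphorylation numbered 18, of which 17 could be tested, 0 were called in either direction by edgeR and 5 had a positive log2 fold change, with a median of -0.04. At an unadjusted p 2 were higher and 0 lower, and DESeq2 called 1 higher (Mylk4). Over all tested genes the shares were 8.71% in either direction at an unadjusted p and 1.76% higher in DESeq2. Of 19 intermediate filament, dense body and adhesion plaque genes 0 were called in either direction by edgeR or DESeq2, 2 were higher and 1 lower at an unadjusted p, 13 had a positive log2 fold change, and the median was 0.06. Csrp1, a LIM protein gene of smooth muscle, led them at 3995 CPM in the libraries labelled transgenic and 3461 CPM in the controls (edgeR adjusted p = 0.784).

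SRF and its cofactors, which control the contractile genes, were not called by edgeR or DESeq2: 0 of 9 were higher and 0 lower. At an unadjusted p 2 were higher and 0 lower, against 8.71% of all tested genes in either direction. Of the 9, 7 had a positive log2 fold change, and the median was 0.12. Myocd, which encodes myocardin, measured 119, 116, 143 and 117 CPM in Fra-2 1 to Fra-2 4, against 77.6, 109, 115 and 132 CPM in control 1 to control 4. Like Cnn1, Tagln, Des and Lmod1, it was lowest among the controls in control 1. Srf itself measured 121, 171, 119 and 115 CPM in Fra-2 1 to Fra-2 4, against 123, 112, 122 and 124 CPM in control 1 to control 4, and was highest in Fra-2 2. Mrtfa and Mrtfb, the myocardin-related cofactors that respond to free actin, were among the 3 genes of this list whose groups did not overlap, with Elk3, the most abundant of the 9. Their log2 fold changes were 0.25, 0.25 and 0.12 (edgeR adjusted p = 0.496, 0.404 and 0.805), and non-overlap upwards was seen in 3.35% of all tested genes.

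Markers of cells that share the contractile genes moved in differing directions beside them. Over all tested genes, edgeR called 0.72% higher and 0.298% lower, DESeq2 called 1.76% and 0.629%, and 8.71% had an unadjusted p under 0.05 in either direction. Of the 11 pericyte and vascular smooth muscle markers 0 were called in either direction by edgeR, 3 were higher and 2 lower at an unadjusted p, and the median log2 fold change was 0.17. Rgs5, a regulator of G protein signalling typical of pericytes, measured 880, 1092, 1189 and 939 CPM in Fra-2 1 to Fra-2 4, against 1303, 1363, 1373 and 1527 CPM in control 1 to control 4. All 4 libraries labelled transgenic were below all 4 controls, a separation downwards seen in 2.42% of tested genes, yet the gene did not pass in edgeR (adjusted p = 0.0920) and was called lower by DESeq2. Pdgfrb, of the same list, separated the other way, at 418 to 462 CPM in the libraries labelled transgenic and 301 to 389 CPM in the controls. Its log2 fold change was 0.34 (edgeR adjusted p = 0.194), and separation upwards was seen in 3.35% of tested genes. Notch3, a receptor of vascular smooth muscle, averaged 70.1 CPM in the libraries labelled transgenic and 56.1 CPM in the controls (edgeR adjusted p = 0.648). Of the 4 airway smooth muscle markers 0 were called by edgeR or DESeq2 and 0 passed at an unadjusted p, with a median of 0.00, and the most abundant, Lgr6, averaged 567 CPM in the libraries labelled transgenic and 597 CPM in the controls. Among the 10 alveolar myofibroblast markers, Stc1 rose (log2 fold change 0.56, edgeR adjusted p = 0.0302) and Enpp2 fell by 0.60 (edgeR adjusted p = 0.0447). The other 8 did not pass in edgeR, with a median of 0.07 over the 10. DESeq2 called 2 higher (Stc1 and Fgf18, a fibroblast growth factor gene) and 1 lower, and at an unadjusted p 3 were higher and 2 lower. Fgf18 averaged 728 CPM in the libraries labelled transgenic and 559 CPM in the controls, with groups that did not overlap (log2 fold change 0.38, edgeR adjusted p = 0.128). The summed level of 6 lipofibroblast and matrix fibroblast markers ran from 311 to 427 CPM in the libraries labelled transgenic. In the controls it ran from 145 to 280.4 CPM, so that the groups did not overlap in this sum. The sum of 6 adventitial fibroblast markers did not overlap either, at 1031 to 1148 CPM in the libraries labelled transgenic and 879.7 to 1020.2 CPM in the controls. Taken singly, Limch1, Npnt and Inmt were the only lipofibroblast and matrix fibroblast markers whose groups did not overlap, and Dcn the only adventitial marker. All of these were separated upwards, as were 3.35% of all tested genes. The shares of non-overlap over all genes are for single genes, and none was computed for sums, so these sums have no background to be set against. None of the lists had a gene at 0 in every library. The part of these cell types in the values of Actc1 and the other contractile genes was not tested.

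The genes whose pattern was most like that of Actc1 were Dpt, Gap43 and Igfbp5, all 3 themselves called higher. Likeness was the root mean square difference between centred log2 CPM values over the 8 libraries, computed for the 9724 genes whose mean reached 5 CPM. It was 0.19 for Dpt, which encodes the matrix protein dermatopontin, 0.19 for Gap43, a growth-associated protein gene known from axons, and 0.20 for Igfbp5, which encodes a binding protein of insulin-like growth factors. Their log2 fold changes were 0.57, 0.81 and 0.83 (edgeR adjusted p = 0.0490, 0.0302 and 0.000424). The measure keeps the group difference in, so genes near Actc1 must differ between the groups much as it does. Their calls are therefore no separate result, and neither is the lack of calls near Acta2. By Pearson correlation 0 of these 3 genes were among the 3 nearest to Actc1. For Acta2 the nearest genes were Pls3, an actin-bundling plastin gene, Cltc, the clathrin heavy chain gene, and Sec23b, which encodes a coat protein of vesicles leaving the endoplasmic reticulum. Their differences were 0.05, 0.06 and 0.06, and none of the 3 was called (edgeR adjusted p = 0.913, 0.954 and 0.913). No other contractile gene of the list was among the 3 nearest to either actin.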

How the data were processed

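The authors deposited raw counts per mouse Ensembl gene, 1 column per library. Per the labels' protocols, mRNA from 50 ng of total RNA was amplified to cDNA (NuGEN Ovation) before Nextera XT libraries were made. The submitters' processing notes list GRCh38, which is of human, although the table's identifiers are of mouse. No aligner or counter is named in the labels. Symbols, coordinates and exon lengths were taken from GENCODE M21 (GRCm38) and matched 42462 of 43432 identifiers. Promoters came from RefSeq (GRCm38.p6).

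Counts were tested in R 4.3.3 with edgeR 4.0.16: filterByExpr (minimum count 10, minimum total 15), TMM scaling, robust quasi-likelihood F-test, two-sided, no covariate, Benjamini-Hochberg adjustment over 15422 genes at 0.05. SE was taken from the log2 fold change and F. Intervals are at 95%. limma 3.58.1 and DESeq2 1.42.0 were alternatives. Log2 CPM used a prior count of 2. The procedure was tested on simulated data. Library pairs within groups differed far beyond sampling noise (chi-square per gene 39.7 to 175), so all 8 were kept. Total counts of 29926239 to 41335957 set the counting error.

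The members, lists and tests were chosen with earlier results of these data known. The text names the 10 members, Fosl2, each called gene of the other lists, the most abundant gene of a list with none, and the 3 genes nearest to Actc1 and Acta2. It also allows genes of the sarcomere and pericyte lists by value (Myh6, Tnnt2, Nppa, Notch3, Pdgfrb). One gene that this rule names is not reported here. Acta1, Actb, Actg1, Myl9, Myocd, Srf, Mrtfa, Mrtfb and genes named only from DESeq2 were added after their values were seen. Sex was read from Xist and 4 Y-linked genes, and each sex alone was added after the data were seen.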

Additional observations from a re-analysis of the deposited data

Results flagged for a closer look

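In 2 of the 22 groups of 4 libraries examined (the 10 contractile genes and Fosl2, in each group), 1 library stood far from the other 3, by the gap to its neighbour relative to the range of the group. Chance gives about 1 such group in 20. Acta2 in control 4, at 3904 CPM, was far above the other controls, which lay between 3038 and 3157 CPM. Lmod1 in control 1, at 59.9 CPM, was far below the other controls, which lay between 72.4 and 74.6 CPM. Without control 4, the log2 fold change of Acta2 was 0.15 (edgeR adjusted p = 0.783). Without control 1, that of Lmod1 was 0.31 (edgeR adjusted p = 0.484).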

How the results depend on the processing

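The log2 fold changes of the 10 genes and Fosl2 and the counts of calls were recomputed under 19 alternatives fixed with the design and in each sex alone, except Myh11 with the 20 most abundant genes left out, of which it is one. Likeness was recomputed under 2 alternatives. List counts in edgeR and actin ratios were not rerun. Of 209 recomputed values of the 10 genes, 198 kept their sign and side of the threshold, 5 lost the call and 6 turned sign. The 5 were Actc1 without Fra-2 1, Fra-2 3, Fra-2 4 or control 2 and in males. Actc1 kept its call under each scaling, filter, covariate, block and other tool run, with adjusted p from 7.42e-05 (DESeq2) to 0.0412. The turned values were Acta2 without Fra-2 1 or Fra-2 4 and in males (-0.11), Tagln without control 1, and Myh11 (-0.0062) and Tpm2 (-0.0045) in males. With 1 library left out, Acta2 ran from -0.023 to 0.18 and Tagln from -0.017 to 0.19. Contractile genes called higher numbered 0 to 1 when 1 library was left out and 0 in males. Over all genes, DESeq2 called 272 higher and 97 lower. Leaving out 1 library gave 50 to 153 higher and 22 to 52 lower, and males alone gave 3 and 0. Fosl2 ran from 0.01 to 0.24 without 1 library. With the replicate number as a block, 137 genes were higher and 53 lower, and of the 10 contractile genes Actc1 alone was called. The block lowered the SE of Actc1 from 0.157 to 0.0989 and that of Cnn1 from 0.211 to 0.0996. Not every same-numbered pair deviated together (correlations 0.00 to 0.31, with 2 of 4 best with their own number), so the numbers were not taken as pairs. By Pearson correlation 0 of the 3 genes nearest to Actc1 were shared. The causes were not tested. For the 9 genes not called, the upper 95% limit of the fold ran from 1.27 to 1.62.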

Other observations

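Markers of cells with no contractile role are given here beside the shares of all tested genes. Those shares were 0.72% higher and 0.298% lower in edgeR, and 1.76% and 0.629% in DESeq2. At an unadjusted p under 0.05 in edgeR the share was 8.71% in either direction. Of the 6 lipofibroblast and matrix fibroblast markers 0 were called by edgeR and 6 had a positive log2 fold change, with a median of 0.57. DESeq2 called 3 of them higher (Limch1, Npnt and Inmt), and 3 were higher at an unadjusted p. Npnt, a matrix ligand gene and the most abundant, measured 193 CPM in the libraries labelled transgenic and 110.2 CPM in the controls (edgeR adjusted p = 0.209). Of 6 adventitial fibroblast markers, the small proteoglycan gene Dcn rose (log2 fold change 0.60, edgeR adjusted p = 0.0323) and 5 did not pass, with a median of 0.22. The median log2 fold change was 0.95 for 4 tested mesothelial markers, 0.31 for 7 epithelial, 0.17 for 8 endothelial, 0.14 for 8 immune, -0.80 for 4 erythroid and 0.03 for 4 cell cycle genes. The most abundant mesothelial marker, Upk3b, averaged 3.04 CPM in the libraries labelled transgenic and 1.70 CPM in the controls. Sftpc, a surfactant gene of alveolar epithelium, averaged 63.5 CPM in the libraries labelled transgenic and 44.6 CPM in the controls. For the endothelial cadherin gene Cdh5 the averages were 27.7 CPM in the libraries labelled transgenic and 24.5 CPM in the controls, and for the macrophage lysozyme gene Lyz2 51.7 CPM in the libraries labelled transgenic and 42.7 CPM in the controls. The beta globin gene Hbb-bs averaged 16.0 CPM in the libraries labelled transgenic and 29.8 CPM in the controls, and the proliferation marker Mki67 346 CPM in the libraries labelled transgenic and 398 CPM in the controls. Of these markers edgeR called 0 in either direction. At an unadjusted p 2 mesothelial, 1 epithelial, 1 endothelial and 1 immune marker were higher and 0 lower, and DESeq2 called 1 higher (Sftpb).

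Actg1, the gamma actin gene of the cytoskeleton, which most cells express strongly, held 25 to 35 reads in the libraries labelled transgenic and 31 to 66 in the controls. The beta actin gene Actb held 50292 to 75433 reads in the libraries labelled transgenic and 53992 to 72078 in the controls. In the annotation, 56.7% of the 50-base windows of the Actg1 transcript occur in transcripts of 22 other genes, against 14.2% for Actb and 0% for Actc1. Whether the counting left out reads with several matches was not tested.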
